A study of Drosophila melanogaster with 3 samples.

Results

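The proneural genes and their basic helix-loop-helix (bHLH) partners were followed through a map of Deadpan (Dpn) binding in the fruit fly embryo. The 10 genes were taken by name from the Ensembl gene models, out of 13945 protein-coding genes. They were achaete (ac), scute (sc), lethal of scute (l(1)sc) and asense (ase) of the achaete-scute complex, atonal (ato), amos, cato and tap of the atonal family, and the partners daughterless (da) and extramacrochaetae (emc). The data came from chromatin immunoprecipitation and sequencing (ChIP-seq) with an antibody to GFP. Per the labels, the flies were a transgenic line that stably expressed dpn fused to eGFP at its C-terminus. Whole embryos of both sexes at 0 to 16 h were pooled, so neural stem cells and every other cell type of the embryo entered the same chromatin. The sources used here do not give the promoter of the fusion gene, or whether untagged Dpn was also present. The 3 biological replicates formed 1 group, and nothing to compare them with was analysed here, so no test between conditions could be made.

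Proneural proteins are transcription factors that give cells of the ectoderm the ability to become neural precursors. They bind E-boxes, DNA words of the form CANNTG, as dimers with the widely expressed Daughterless protein. Extramacrochaetae is a helix-loop-helix protein without a basic region, and it holds proneural proteins and Daughterless in dimers that cannot bind DNA. The genes of the achaete-scute complex act in external sense organs and in the central nervous system, and ase is a marker of neuroblasts. The atonal family acts in stretch-sensing organs, photoreceptors and some olfactory organs. Dpn is a bHLH repressor related to Hairy and is expressed in neuroblasts.

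A summit is the single base that the peak caller marked inside a peak. It was read in 5 lists on the dm6 genome build: the authors' thresholded list, the relaxed list of the pooled replicates, and the relaxed list of each replicate. The windows below are a selection from summits around da and emc, the partners, and from the achaete-scute complex, which had none in the thresholded list. They do not stand for all 10 thresholded summits. Each runs 5′ to 3′ on the plus strand of Release 6 of the RefSeq genome, 50 bp to either side of the summit. Capitals mark E-boxes (CANNTG). For the emc start site only the 35 bases before the transcript are printed, and summit windows inside untranslated regions are not printed.
da, summit 1587 bp upstream of the start (chr2L:10386468-10386568): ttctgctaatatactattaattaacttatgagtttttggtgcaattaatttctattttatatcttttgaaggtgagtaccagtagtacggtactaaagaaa
emc, bases upstream of the start, summit at 15 bp (chr3L:749365-749399): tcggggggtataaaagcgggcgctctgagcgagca
emc, intronic summit 2499 bp downstream of the start (chr3L:751849-751949): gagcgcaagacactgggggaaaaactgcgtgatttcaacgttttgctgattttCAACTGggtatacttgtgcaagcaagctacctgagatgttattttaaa
emc, summit 13137 bp downstream (chr3L:762487-762587): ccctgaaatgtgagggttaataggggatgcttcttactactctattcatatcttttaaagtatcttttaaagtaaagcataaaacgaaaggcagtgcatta
achaete-scute complex, strongest pooled summit (chrX:362198-362298): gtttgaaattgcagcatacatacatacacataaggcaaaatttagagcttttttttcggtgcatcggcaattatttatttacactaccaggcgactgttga
The window at 2499 bp downstream of the emc start held 1 E-box, CAACTG, and the others shown held none.

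In the thresholded and pooled lists the start sites of both partners had summits, and those of the other 8 genes did not. In the thresholded list, 2 of the 10 genes, da and emc, had a summit within 500 bp of a start site, beside 27.7% of all protein-coding genes. The same 2 genes were the only ones of the 10 in the pooled relaxed list, where 54.2% of all protein-coding genes had such a summit. The replicate lists gave 3 genes in replicate 1 (ato, da and emc), 3 in replicate 2 (ase, da and emc) and 2 in replicate 3 (da and emc). All protein-coding genes gave 56.0%, 43.3% and 55.4% in the same lists. Each of the 10 genes has 1 annotated start site, whereas a gene with several was counted if any of them had a summit. The part of this in the start-site shares of all genes was not tested. The summits at ato and ase were weak and each was in 1 replicate. That of ato lay 36 bp upstream of the start at rank 17921 of 30000 by signal, and that of ase lay 399 bp downstream at rank 17181 of 22475. Only emc had a thresholded summit inside the gene body, so 1 of 10 did, beside 14.1% of all protein-coding genes. Counting the gene body together with 10 kb on each side, 4 genes had a summit (da, emc, amos and cato), beside 71.7% of all protein-coding genes. Of the 6 genes without one there, ac, sc, l(1)sc and ase lie in the same complex, so they are not separate observations. With only 10 genes, these shares are a description, and no test was made.

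From its start, the nearest thresholded summit was 15 bp away for emc and 102 bp away for da. It was 6.34 kb away for amos, 7.59 kb for cato, 13.2 kb for ato, 15.9 kb for ase and 24.6 kb for ac. It was farthest for sc (50.6 kb), tap (56.4 kb) and l(1)sc (64.3 kb). The median over the 10 genes was 14.6 kb, and over all protein-coding genes it was 4.53 kb, with quartiles at 0.331 and 13.7 kb. Thus 5 of the 10 lay beyond the upper quartile of all genes, namely tap and the genes of the achaete-scute complex. The genes of the complex share the same stretch without a thresholded summit, and ac, sc and l(1)sc were measured to the same summit. Their distances are therefore not separate observations, in this count or in the median. For ato, that nearest summit was 143 bp from the start of Mcm2, a gene of the replication helicase. For tap it was 291 bp from the start of blot.

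**Figure D1:**
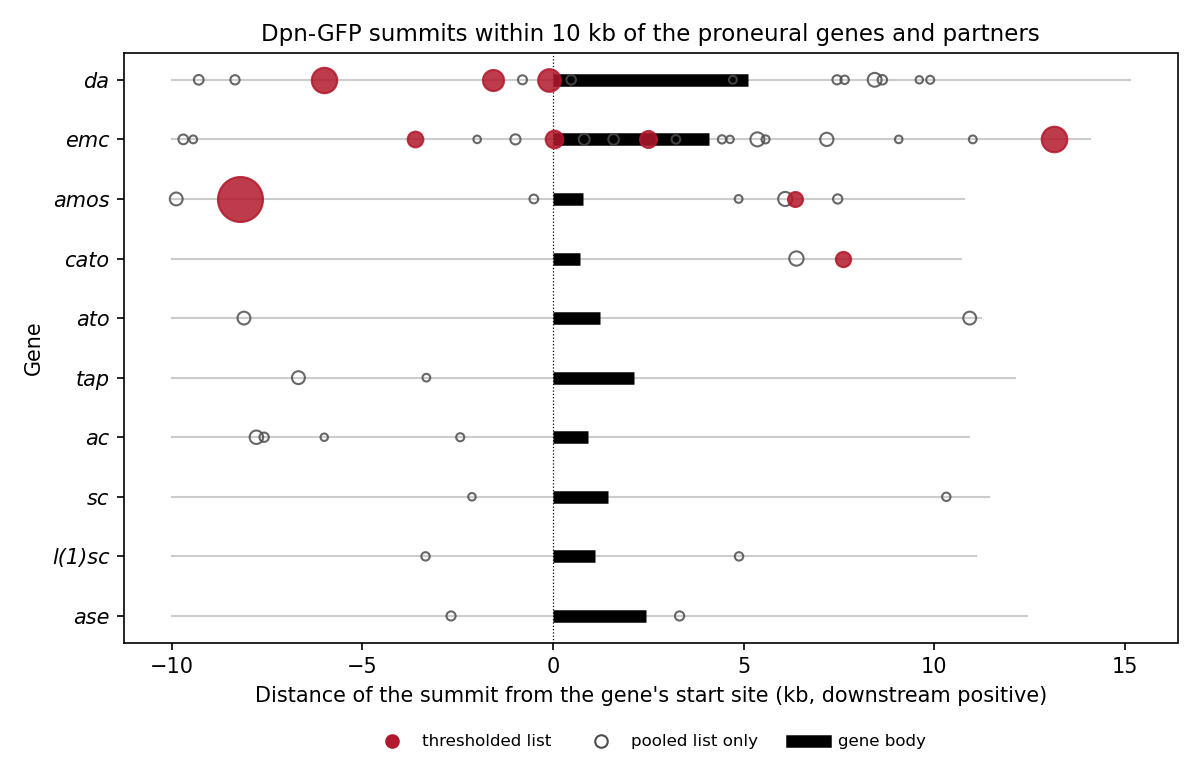
Summits of the pooled list within 10 kb of each of the 10 genes, by distance from the start site in kb. Red discs are in the thresholded list, open circles are in the pooled list only, disc area grows with the authors' signal, and black bars are gene bodies. Thresholded summits sit at the starts of da and emc, while the 4 genes of the achaete-scute complex, ato and tap have open circles only.

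The da gene (FBgn0267821, 2L, 10388105 to 10393228), which encodes the common partner of all proneural proteins, had 3 thresholded summits within 10 kb. The summit 102 bp upstream of its start, at 10388003, had a signal of 296.15 and ranked 1924 of 6253. It was the only one of the 3 whose nearest protein-coding start was da itself. The nearest summit ranked 2570 of 30000 in replicate 1 (55 bp away), 1792 of 22475 in replicate 2 (15 bp away) and 1732 of 30000 in replicate 3 (at the same base). All 3 replicates therefore held it among their first 6253. The summit 1587 bp upstream, at 10386518 (signal 256.36, rank 2394), lay between genes and 144 bp from the start of mRpS7, a mitochondrial ribosomal protein gene. Its ranks in replicates 1, 2 and 3 were 3253, 1730 and 2336. The strongest, 5999 bp upstream at 10382106 (signal 372.19, rank 1290), lay in the 3′ untranslated region of gny and 157 bp from the start of CG5096. Its ranks were 1971, 2214 and 883. No thresholded summit lay in the da gene body. The pooled list added 11 weaker summits around da, the strongest of them 8436 bp downstream of the start at rank 7026 and 175 bp from the start of Cnot4.

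The emc gene (FBgn0000575, 3L, 749400 to 753492), the inhibitor of the group, had 4 thresholded summits, the most of the 10 genes. The summit at 749415 lay 15 bp inside the transcript, in the 5′ untranslated region, with a signal of 179.62 and rank 3880. Its ranks were 2006 in replicate 1, 5392 in replicate 2 and 5201 in replicate 3. Replicate 1 thus placed it higher than the other two did. A second summit lay in the emc intron, 2499 bp from the start (751899, signal 166.63, rank 4254), and ranked 6582, 3980 and 4240 in replicates 1, 2 and 3. Another lay 3620 bp upstream (745780, signal 142.22, rank 5252) in an intron of hng3, an overlapping gene. It ranked 8765, 7043 and 4032, so only replicate 3 held it among its first 6253. With non-coding genes counted, its nearest start was that of a tRNA gene, 1986 bp away. The strongest lay 13137 bp from the start and within 10 kb of the gene's end (762537, signal 376.62, rank 1255). Its nearest protein-coding start was that of hng3, 7048 bp away, and its ranks were 2749, 1248 and 1180. The start of another tRNA gene was 6966 bp away. The pooled list held 18 summits in the emc neighbourhood, 5 of them in the gene body.

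The 4 genes of the atonal family had no thresholded summit within 6 kb of a start. The highest rank of the whole group fell in the neighbourhood of amos (FBgn0003270, 2L, 18596136 to 18596921), which acts in olfactory sense organs. That summit, 8201 bp upstream at 18605122, had a signal of 1168.62 and ranked 115 of 6253. It ranked 116, 130 and 116 in replicates 1, 2 and 3, at 25, 11 and 6 bp from the pooled position. It lay in the 5′ untranslated region of CG10413, 100 bp from the start of that gene. A weaker one, 6340 bp downstream at 18590581 (signal 129.84, rank 5830), lay 239 bp from the start of Pde11, a phosphodiesterase gene. Close to amos itself, the pooled list held a summit 505 bp upstream of the start at rank 19257. It was at 504 bp and rank 10778 in replicate 2, at 514 bp and rank 24400 in replicate 3, and the nearest in replicate 1 was 2864 bp upstream.

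The cato gene (FBgn0024249, 2R, 16277685 to 16278396), which acts in sensory neurons, had 1 thresholded summit in its neighbourhood. It lay 7593 bp downstream at 16270803 (signal 134.51, rank 5592), in an intron of Khc, the kinesin heavy chain gene. Its ranks were 4835, 6389 and 6436 in replicates 1, 2 and 3, so only replicate 1 held it among its first 6253. A neighbour 41 bp from the Khc start ranked 6538 in the pooled list (signal 117.63), and was the strongest summit near any of the 10 genes to miss the authors' threshold. The weakest to pass was the one downstream of amos at rank 5830.

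Neither ato nor tap had a thresholded summit within 10 kb. The ato gene (FBgn0010433, 3R, 8278052 to 8279274), the founding gene of stretch-sensing organs and photoreceptors, had 2 pooled summits. They lay 8109 bp upstream (signal 94.5, rank 8313) and 10929 bp downstream (signal 95.5, rank 8192), the second 1105 bp from the start of Nazo. The upstream one ranked 6377 in replicate 1 and 5977 in replicate 3. Replicate 2 had 1 summit near ato, at 2793 bp upstream and rank 21645. The tap gene (FBgn0015550, 3L, 17359682 to 17361811) had its strongest pooled summit 6680 bp upstream (signal 95.74, rank 8169), 40 bp from the start of CG7692. Its ranks were 12221, 12763 and 7638 in replicates 1, 2 and 3.

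The achaete-scute complex held no thresholded summit. It spans X from 370031 (the start of ac) to 463176 (the end of ase), or 93.1 kb, and all of it lies within an intron of the long annotated gene CG32816. With 10 kb on either side the region measured 113 kb. The X arm had 5 thresholded summits per 100 kb, which would give 5.65 in a region of this length. For scale, 29 of 208 consecutive windows of the same length along X held no thresholded summit (13.9%), and so did 232 of 1180 over the 6 arms (19.7%). The summits that flank the complex were at 345450 (signal 159.87, rank 4526), in introns of CG3777 and CG32816, and at 476632 (signal 126.92, rank 5994), 53 bp from the start of ebo. The 131 kb between them was the 27th longest of 1175 distances between neighbouring thresholded summits on X, whose median was 7.08 kb.

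In the relaxed lists the complex held fewer summits than the density of the X arm would give. The region held 13 summits in the pooled list, 13 in replicate 1, 6 in replicate 2 and 12 in replicate 3. At the density of the X arm in each list it would have held 26.8, 25.1, 18.6 and 26.9. As few summits or fewer were found in 19.7%, 25.5%, 9.13% and 18.8% of the X windows in the same lists. Over the 6 arms the shares were 26.6%, 28.1%, 13.4% and 26.6%, so such a low count was not rare. Of the 13 pooled summits, 4 had a summit within 250 bp in all 3 replicates, 2 in 2 replicates, 6 in 1 replicate and 1 in none. Of the 4, those at 362248 and 362451 were matched to the same summit in replicate 3, at 6 and 197 bp. The relaxed lists hold background by design, so a weak summit there cannot be told apart from background.

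The strongest summit of the complex was 7783 bp upstream of ac (FBgn0000022, 370031 to 370947), at 362248. Its pooled signal was 104.3 and its rank 7466, and it ranked 8205, 7063 and 9443 in replicates 1, 2 and 3, within 21 bp of the same place. It lay 151 bp from the start of the non-coding gene yar, which sits between yellow and ac, and it is the X window printed above. A second one beside it, at 362451, ranked 16541. The other summits matched in all replicates, a pair, flanked ase (FBgn0000137, 460747 to 463176), the member that marks neuroblasts. These were 2677 bp upstream of its start (rank 17574, signal 47.62) and 3319 bp downstream of it, just past the gene (rank 16989, signal 48.99). In replicates 1, 2 and 3 the upstream one ranked 14921, 19150 and 25507, and the downstream one 19418, 15993 and 27143. These replicate ranks lay between 49.7% and 90.5% of the way down their lists.

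Around sc (FBgn0004170, 396060 to 397497) the pooled list held 2 summits, with the nearest 2128 bp upstream at rank 27765. Around l(1)sc (FBgn0002561, 409721 to 410817) it also held 2, at 3346 bp upstream (rank 21330) and 4878 bp downstream of the start (rank 21246). The first of these lies within 10 kb of both genes. Replicate 2 had no summit within 10 kb of either gene. No list held a summit in the body of ac, sc or l(1)sc.

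**Figure D2:**
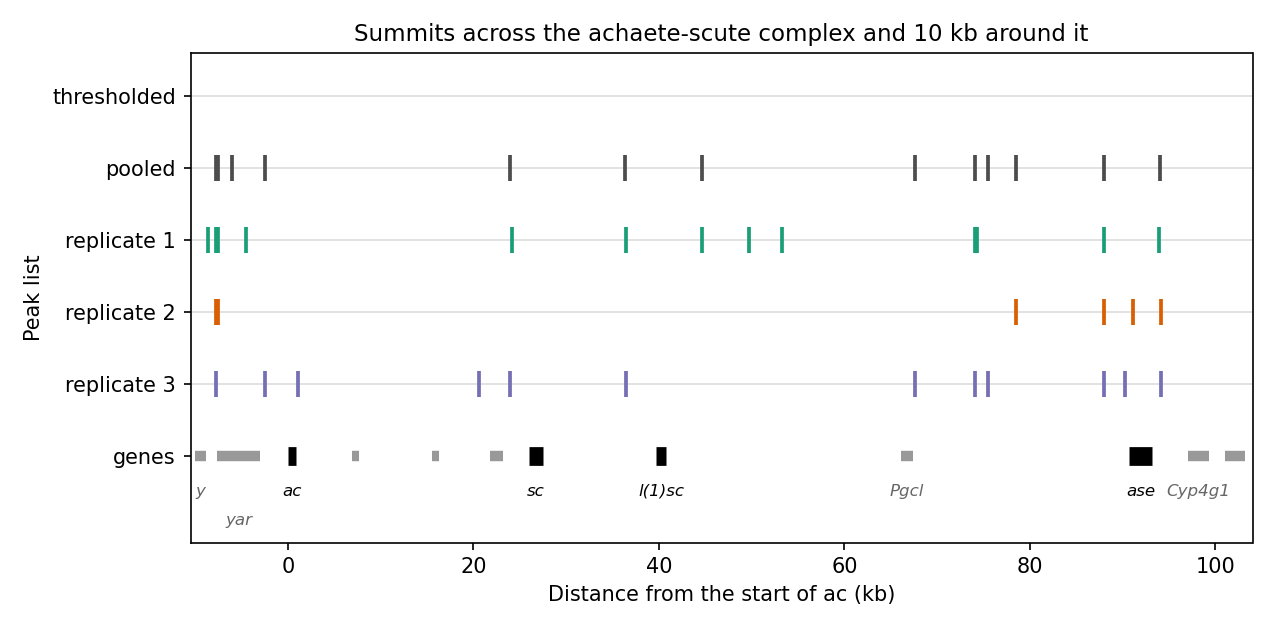
Summits in the 5 lists across the achaete-scute complex and 10 kb around it, by distance from the start of ac in kb. Ticks are summits, black boxes are the 4 genes of the complex and grey boxes other genes (CG32816, whose intron spans the complex, is not drawn). The thresholded row is empty, and summits near -7.8 kb and on both sides of ase recur in all 3 replicates.

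Ranked by the strongest pooled summit within that same 10 kb neighbourhood, the order was amos (115), emc (1255), da (1290), cato (5592), ac (7466), tap (8169), ato (8192), ase (16989), l(1)sc (21246) and sc (21330). This order depends on the flank. With 5 kb the strongest rank was 19257 for amos, 23421 for ac, 26067 for tap and 3880 for emc, and neither ato nor cato had a pooled summit. With 20 kb it was 846 for cato, 1191 for ato, 5994 for ase and 618 for emc. Over the replicate lists, the rank of each gene's strongest summit was 0.451% ± 0.11 of the list for amos, 5.39% ± 1.39 for emc and 5.74% ± 2.49 for da (SD, n = 3). It was 21.5% ± 6.3 for cato, 30.1% ± 2.34 for ac, 41% ± 15.7 for tap, 45.8% ± 43.7 for ato and 58.3% ± 11.4 for ase. For emc, da, cato, ato and ase the strongest summit was not at the same place in all replicates. That of ase lay 2716 bp upstream, 3338 bp downstream and 548 bp upstream of the start in replicates 1, 2 and 3. For these genes the SD mixes places and does not describe a single summit. The emc and da values differed by less than their spread. So did those of ac with tap, and those of ato with each of cato, ac, tap and ase. These spreads leave out that all genes were read in the same replicates. Read by replicate, cato ranked ahead of ato in each, though in replicate 3 only at 5968 beside 5977. For the other pairs named here the order changed between replicates. The ato mean rested on replicate 2, and without that replicate it was 20.6%. Without the same replicate the cato mean was 18%, beside 21.5% for cato over all replicates. For sc and l(1)sc no mean is given, since replicate 2 had no summit. The lists differ in length, with 22475 peaks in replicate 2 and 30000 in the other two, so the percentages are not on 1 common scale.

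**Figure D3:**
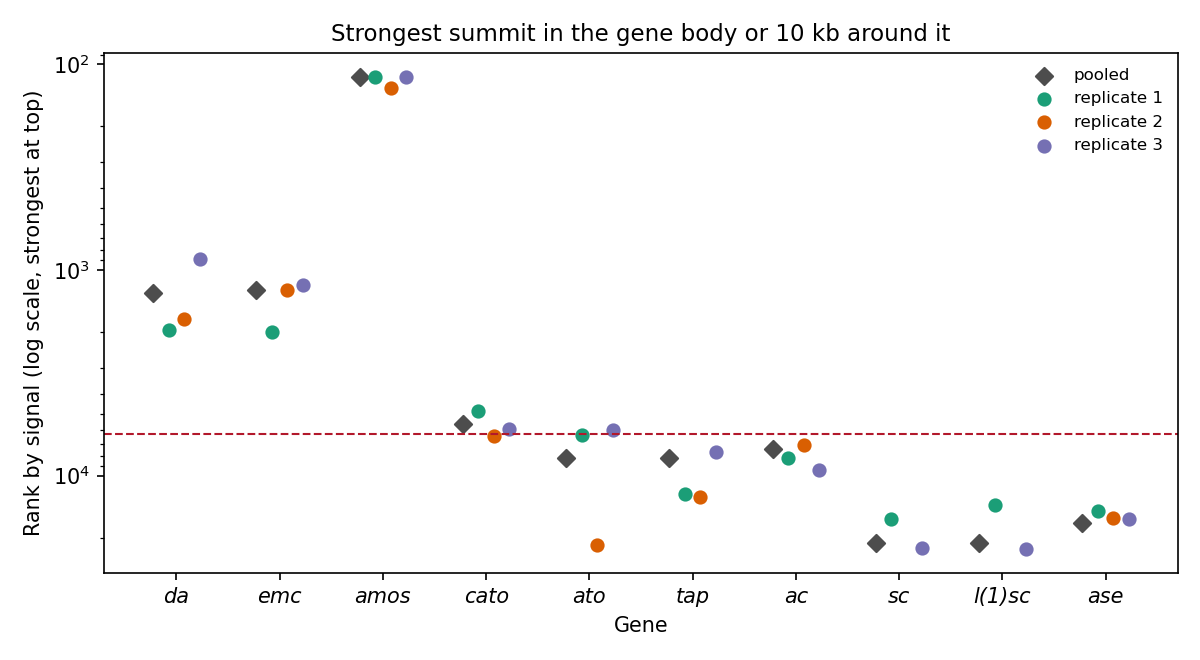
Rank by signal of the strongest summit of each gene and its 10 kb neighbourhood in the pooled list (diamonds) and the 3 replicate lists (dots), on a log axis with the strongest at the top. The dashed line is rank 6253, the size of the thresholded list. The amos, emc and da points lie above the line in all 4 lists, while those of tap, ac, sc, l(1)sc and ase all lie below it.

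By number of summits in the pooled list the partners came first. In the pooled list emc had 18 and da 14 within 10 kb, amos had 7, ac had 4, and each of the other 6 genes had 2. The median over the 10 genes was 2, and over all protein-coding genes it was 7, with quartiles at 3 and 10. All 10 genes had at least 1 pooled summit there, beside 91.9% of all protein-coding genes. In replicates 1, 2 and 3 the counts were 10, 8 and 10 genes, beside 90.6%, 96.0% and 91.0% of all genes. A stricter reading, with a summit among the first 6253 of every replicate, left da, emc and amos, or 3 of 10, beside 64.1% of all protein-coding genes. Over the replicates, da had 9.67 ± 4.51, emc 13 ± 4.36 and amos 7.67 ± 1.15 summits (SD, n = 3). The da and amos values differed by less than the spread of da, and in replicate 2 amos had 7 summits and da 5. The counts of sc (1.67 ± 1.53) and l(1)sc (1.33 ± 1.53) varied more relative to their means. The median length of the 10 genes was 1330 bp, beside 2166 bp for all protein-coding genes. However, da (5124 bp) and emc (4093 bp), with the most pooled summits, are the longest of the 10, and ase (2430 bp) also exceeds the median of all genes. Gene length enters the rules on the gene body and the 10 kb, and its part in these counts was not tested.

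**Figure D4:**
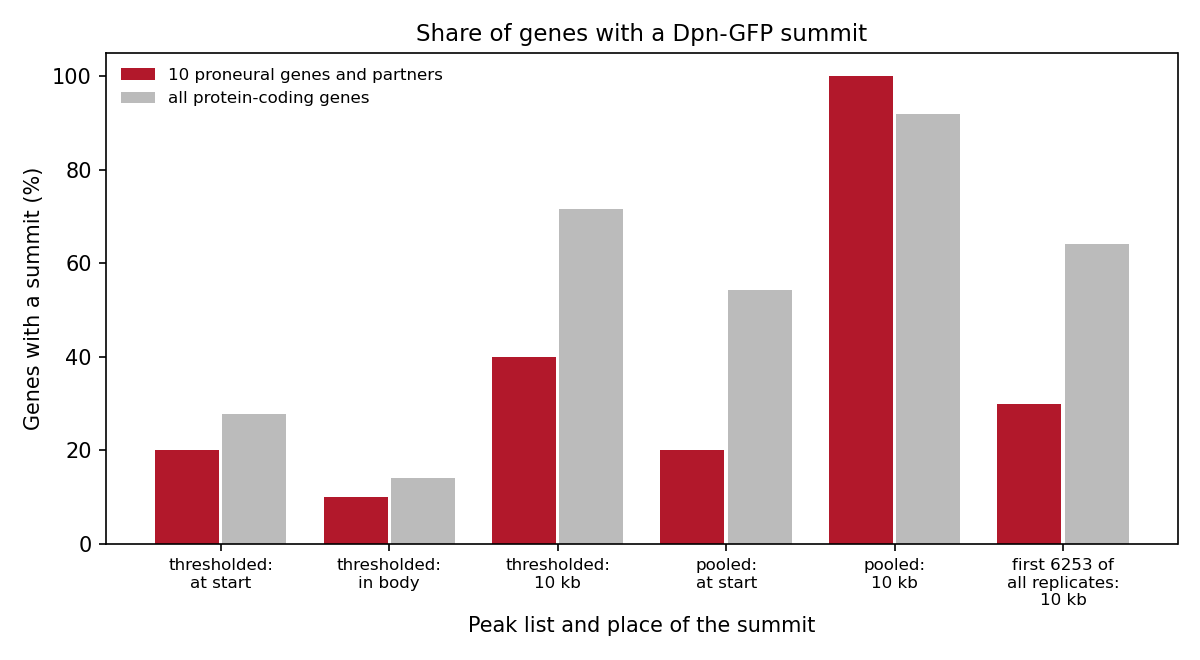
Share of genes in percent with a summit, for the 10 genes (red) and all 13945 protein-coding genes (grey), by peak list and place of the summit. The red bar is lower in each pair except the pooled list within 10 kb, where all 10 genes had a summit, beside 91.9% of all genes.

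In all, 10 thresholded summits lay within 10 kb of the 10 genes. The nearest protein-coding start was that of the proneural gene or partner for 4 of them, 1 at da and 3 at emc. For the other 6 it was that of another gene (CG10413, Pde11, Khc, CG5096, mRpS7 and hng3). Of the 3 at emc, the one 3620 bp upstream was nearer to the start of a tRNA gene. All 10 had a summit within 91 bp in each replicate. Of the 10, 6 were among the first 6253 summits of all 3 replicates, namely 3 around da, 2 around emc and 1 around amos. A further 2 were there in 2 replicates, and the last 2 in 1 replicate. The thresholded list was itself derived from these replicates, so this is not an independent check of it.

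**Figure D5:**
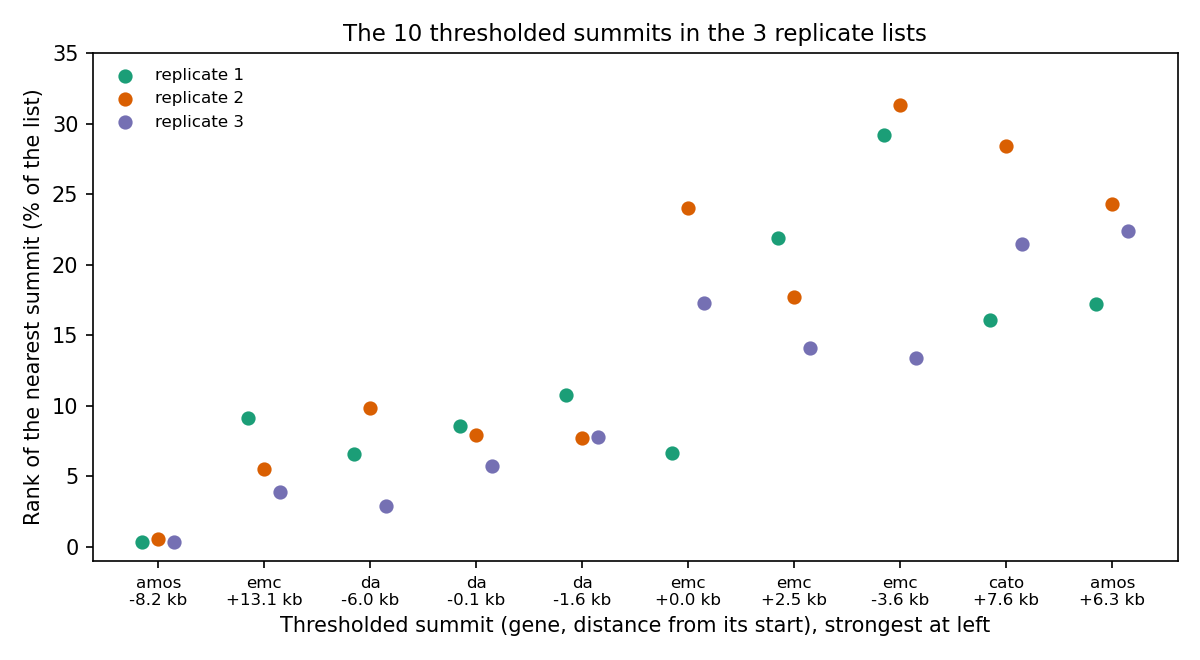
Rank of the nearest replicate summit, as a percentage of that replicate's list, for the 10 thresholded summits, ordered by pooled signal with the strongest at left. Dots are the 3 replicates. The summit upstream of amos lies at 0.387% to 0.578% in all replicates, and the one 3.62 kb upstream of emc spreads from 13.4% to 31.3%.

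The DNA at these 10 summits was described by fixed words, counted on both strands within 50 bp. An E-box of any form (CANNTG) was present at 4 of 10 (40%, exact 95% binomial interval 12.2 to 73.8), beside 35.6% of all 6253 thresholded summits. Among them were the intronic emc window printed above, CACCTG at the strong summit upstream of amos and CACTTG at 5999 bp upstream of da. None of the 10 held CACGTG or CACGCG, the E-box forms known for Hairy-class repressors, or the wider CACGNG that contains both. A count of 0 in 10 allows a share of up to 30.8% (same interval). Over all thresholded summits the shares were 0.8%, 1.18% and 4.35%, so 10 summits cannot show a difference. The intervals treat the 10 summits as separate observations. The summits lie around only 4 genes, so the intervals may be too narrow. The E-box CAGCTG was also at 0 of 10, beside 3.93% of all thresholded summits, and so was CAGATG, beside 3.66%, and CATATG, beside 3.77%. The same held for TATCGATA (2.46% of all) and for GAGAG (9.18% of all). Within 100 bp, GAGAG was at 3 of 10 (20.8% of all), CACNAG at 3 (20% of all) and CAGATG at 1 (7.07% of all). Within 50 bp, the intronic emc summit was the only one to hold an N-box, CACNAG (10.3% of all summits). It was also the only one to hold CAGGTAG, the word of the early activator Zelda (0.336% of all summits). The interval for 1 in 10 was 0.253 to 44.5%, which holds both of these shares, and 11 words were counted. The median GC content of the 10 windows was 34.7%, beside 33.7% for all thresholded summits. A word match is a description of these letters and not a binding site.

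Related genes outside the group were read by the same rules, from 2 fixed lists. Of 14 other bHLH genes, 3 had a thresholded summit at a start site, beside the 27.7% of all protein-coding genes. These were crp (signal 561.37, 86 bp from the start), net (249.61, 208 bp) and Oli (134.71, 78 bp). In the gene body, 5 of the 14 had a thresholded summit, beside the 14.1% of all genes. Within 10 kb, 12 of the 14 had a summit, all but dimm and Fer3, beside the 71.7% of all genes.

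Of 20 regulators and effectors of proneural genes, 4 had a thresholded summit at a start site, beside the 27.7% of all protein-coding genes. The strongest was at gro, the corepressor gene (signal 1078.66, 122 bp from the start), followed by chn, a zinc-finger gene (950.25, 191 bp), neur, a ubiquitin ligase gene of the Notch pathway (323.38, 200 bp), and the Notch gene N (239.53, 340 bp). In the gene body, 9 of the 20 had a thresholded summit, beside the 14.1% of all genes. Within 10 kb, 16 of the 20 had a summit, beside the 71.7% of all genes, and ush, whose product binds the regulator Pannier, had 20 summits, the strongest at rank 3 of the list (signal 3748.7). The 4 without were Delta, sens, vnd and mirr. Of these 4, sens, vnd and mirr had a start-site summit in the pooled relaxed list. The senseless gene (sens) acts with proneural proteins in sense organ precursors, and vnd is an upstream regulator of the achaete-scute complex in the neuroectoderm. The pooled list held a start-site summit for 17 of the 20, beside 54.2% of all genes, and for 5 of the 14 other bHLH genes.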

How the data were processed

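The measurements were ChIP-seq peaks of GFP-tagged Dpn in 3 biological replicates of whole embryos (0 to 16 h). The deposited dm6 peak lists were used: 1 thresholded list, 1 relaxed list of the pooled replicates and 1 relaxed list per replicate. Per the deposited text listings, a control entered each call, and the thresholded list was derived from the other 4. The aligner, the caller and the sequencing depth are each not given in the sources used here, so the depth behind a value is unknown. The signal of a peak is the authors' score, in an undefined scale, used here for ranking inside each list. The authors' −log10 q-value took a single value over the thresholded list, so ranks were not taken from it. The summit is the deposited peak start plus the deposited offset. The 5 dm3 lists were not used, and some summit windows have sequences that are not reported here.

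Gene models were those of Ensembl release 115 (BDGP 6.54) for protein-coding genes on 6 chromosome arms. All 10 member genes read a start codon at their annotated place in the RefSeq Release 6 sequence, and 0 peaks ran past the end of an arm. Coordinates are 1-based. A gene was counted when a summit lay within 500 bp of any annotated start site, in its body, or in its body and 10 kb around it. The start-site and 10 kb rules were tested on simulated summits, and the gene-body rule was not. Analyses used Python 3.11.15, pandas 2.3.3, numpy 2.4.6 and scipy 1.17.1. Named genes were the 10 members, genes nearest to thresholded summits around them, and members of the 2 other lists with start-site summits. The genes ush, dimm, Fer3, Delta, sens, vnd and mirr, and the genes named at summits beyond 10 kb or below the threshold were chosen after their values were seen. The members and lists were chosen with earlier results of these data known. Other windows, flanks, thresholds and sets of replicates were tried as alternatives. No test between groups was possible, and intervals cover counting error only.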

Additional observations from a re-analysis of the deposited data

How the results depend on the processing

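The count of genes with a start-site summit stayed at 2 in the thresholded list with windows of 250 and 1000 bp and with peak intervals. In the pooled list it was also 2 (3 there with a window of 1000 bp). Each of the 10 genes has 1 annotated start site, so using the first start site only could not change the count. With the 3126 strongest peaks it was 1, da alone, and the count of genes with a summit in the body was 0 in place of 1. In the pooled list the body count was 2, the 10 kb count was 10 in place of 4, and the achaete-scute region held 13 summits in place of 0, since that list holds 30000 peaks. The 10 kb count was 2 with a flank of 5 kb and 6 with 20 kb, and the complex held 1 thresholded summit with 20 kb. The count of genes with a summit among the first 6253 of all replicates was 3, from 3 to 4 with each replicate left out in turn, and 5 with the first 12506. The thresholded list could not be made again without a replicate, so the empty complex has no such check. With words counted within 100 bp, the E-box was at 6 of the 10 summits (59.3% of all summits), CACNAG at 3 (20% of all), GAGAG at 3 (20.8% of all) and CAGATG at 1 (7.07% of all). The flank and left-out replicates for ranks were chosen after seeing the data. No paired analysis between conditions was possible because there was 1 group. Genes were read in the same replicates, and no paired test between genes was made. Read depth, the control and the scale of the signal were not analysed here, which limits what a summit missing from a list can show.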
